A study of Mus musculus with 7 samples.

Results

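The genes described here are the chaperones and regulators of 2 protein-folding stress responses, 36 mouse genes in all, of which 16 belong to the heat shock group and 20 to the endoplasmic reticulum (ER) stress group. They were chosen by name, as the rows that carry the NCBI gene number of a listed symbol and of no other gene, and the rule itself uses no measured value. Of the 36, 34 were found as rows of a single gene among 24990 features, 23447 of which were named as single genes. The 15 heat shock genes found comprise 12 of the cytosol and nucleus and 3 of the mitochondrion, and 19 ER stress genes were found. Genes the results turn on include Dnajb1 (NCBI gene 81489), Stip1 (20867), Hspb1 (15507), Hspb11 (72938), Hspd1 (15510), Canx (12330), Pdia6 (71853), Xbp1 (22433) and Trib3 (228775). Dnaja1 and Pdia4 share their rows with a microRNA gene and stayed out of every count of levels and tests, though the promoter counts include them.

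Polyadenylated RNA was read from its 3′ end (Lexogen QuantSeq) in 7 libraries of day 4 embryoid bodies, the aggregates in which embryonic stem cells differentiate. All 7 came from the R1 mouse embryonic stem cell line, freed of feeder fibroblasts on gelatin, hung in drops without LIF and collected on day 4, and the design varies Meteor, a long non-coding RNA locus near the T-box gene Eomes. By title there are 2 wild-type libraries (WT1, WT2), 2 from cells without the Meteor promoter (pKO1, pKO2), 1 with that promoter inverted (pInv), 1 empty-vector control (Ctrl) and 1 CRISPR knockdown of Meteor (KD), which the design text calls Cas9 and the sample field dCas9. The genotype field contradicts the title of 5 libraries: it gives the promoter knockout for WT1 and WT2, the promoter inversion for pKO1, and wild type for pKO2 and pInv. Every direction between genotypes below follows the titles, and the labels do not say whether libraries of a group came from separate clones or cultures.

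In the cytosol, Hsp70 and Hsp90 machines fold and hold other proteins with the help of J-domain proteins and nucleotide exchange factors, and heat shock factor 1 (HSF1) raises their genes when unfolded protein accumulates. In the ER, a separate set of chaperones and disulfide isomerases folds secreted and membrane proteins, and the sensors IRE1, ATF6 and PERK raise it through the transcription factors XBP1, ATF6 and ATF4. Many of these chaperones are also made without stress, because all newly made protein needs them.

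The regulators act through short promoter elements, which can be searched for as sequence. The 250 bases before the gene start were read on both strands for 29 of the 36 genes from the RefSeq promoter table (build GRCm38.p6). Hspa8, Hsp90aa1, Hsp90ab1, Hsf1, Hspa9, Manf and Atf6 had no promoter there to read. The ER stress element, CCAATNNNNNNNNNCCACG, was found in 7 of 18 ER stress genes and 0 of 11 heat shock genes, against 0.113% of all 32851 promoters. The heat shock element, GAANNTTCNNGAA, was found in 2 of 11 heat shock genes and 0 of 18 ER stress genes, against 0.466% of all promoters. Those 2 are the mitochondrial genes Hspd1 and Hspe1, which share the site, so no cytosolic gene read held it. The amino acid response element, TGATGNAA, to which ATF4 can bind, was found in 2 of 18 ER stress genes, Asns and Herpud1, against 3.45% of all promoters. A match is a description of letters and not a shown binding site.

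The ER stress element is shown, in capitals, for the 4 genes whose levels are compared most below. Hspa5 lies at chr2:34772010-34772079 on the plus strand, Canx at chr11:50325764-50325833 on the minus strand, Pdia6 at chr12:17266476-17266545 on the plus strand and Dnajc3 at chr14:118937812-118937881 on the plus strand, each read 5′ to 3′ toward the gene.
Hspa5: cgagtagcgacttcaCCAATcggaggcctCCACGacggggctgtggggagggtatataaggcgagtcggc
Canx: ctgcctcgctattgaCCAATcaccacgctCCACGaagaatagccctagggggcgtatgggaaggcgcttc
Pdia6: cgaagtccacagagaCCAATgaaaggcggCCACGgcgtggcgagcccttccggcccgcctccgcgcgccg
Dnajc3: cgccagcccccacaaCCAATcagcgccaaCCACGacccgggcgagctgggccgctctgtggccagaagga
The other 3 with this element were Calr, Creld2 and Hsp90b1, of which Hsp90b1 held 2 matches.

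The mitochondrial chaperonin genes Hspd1 and Hspe1 stand head to head, and both windows cover the same heat shock element, read from opposite strands. Hspe1 is read at chr1:55088044-55088113 on the plus strand and Hspd1 at chr1:55088022-55088091 on the minus strand. Capitals mark the fixed bases of the 2 overlapping matches.
Hspe1: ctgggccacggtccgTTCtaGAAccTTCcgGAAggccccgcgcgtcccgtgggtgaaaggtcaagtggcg
Hspd1: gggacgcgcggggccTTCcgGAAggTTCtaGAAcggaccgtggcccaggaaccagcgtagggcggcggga
Asns, the asparagine synthetase gene at chr6:7693210-7693279 on the minus strand, shows the amino acid response element in capitals.
Asns: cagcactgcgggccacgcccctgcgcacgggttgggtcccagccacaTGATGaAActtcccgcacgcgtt

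Values below are in CPM, the authors' expected counts scaled to a common library size with TMM. Libraries held between 1898350 (WT2) and 2564478 (WT1) expected counts, and 3 counts, the upper limit that a count of 0 allows, were worth between 1.12 CPM (WT1) and 1.80 CPM (WT2). Between 12.9% and 24.1% of a library's counts fell on the precursor of ribosomal RNA (45S). Summed primitive streak markers were lowest in WT2, at 546 CPM against 1170 to 2470 CPM elsewhere, and Eomes ran from 312.1 CPM (WT2) to 458.8 CPM (WT1). Summed macrophage markers reached 221 CPM in KD and 1.02 to 2.12 CPM in the other 6. Fibroblast markers summed to 13.4 CPM or less in every library. In whole bodies, fewer cells of a type and less RNA per cell cannot be told apart. Meteor's own transcript was not analysed here.

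**Figure D1:**
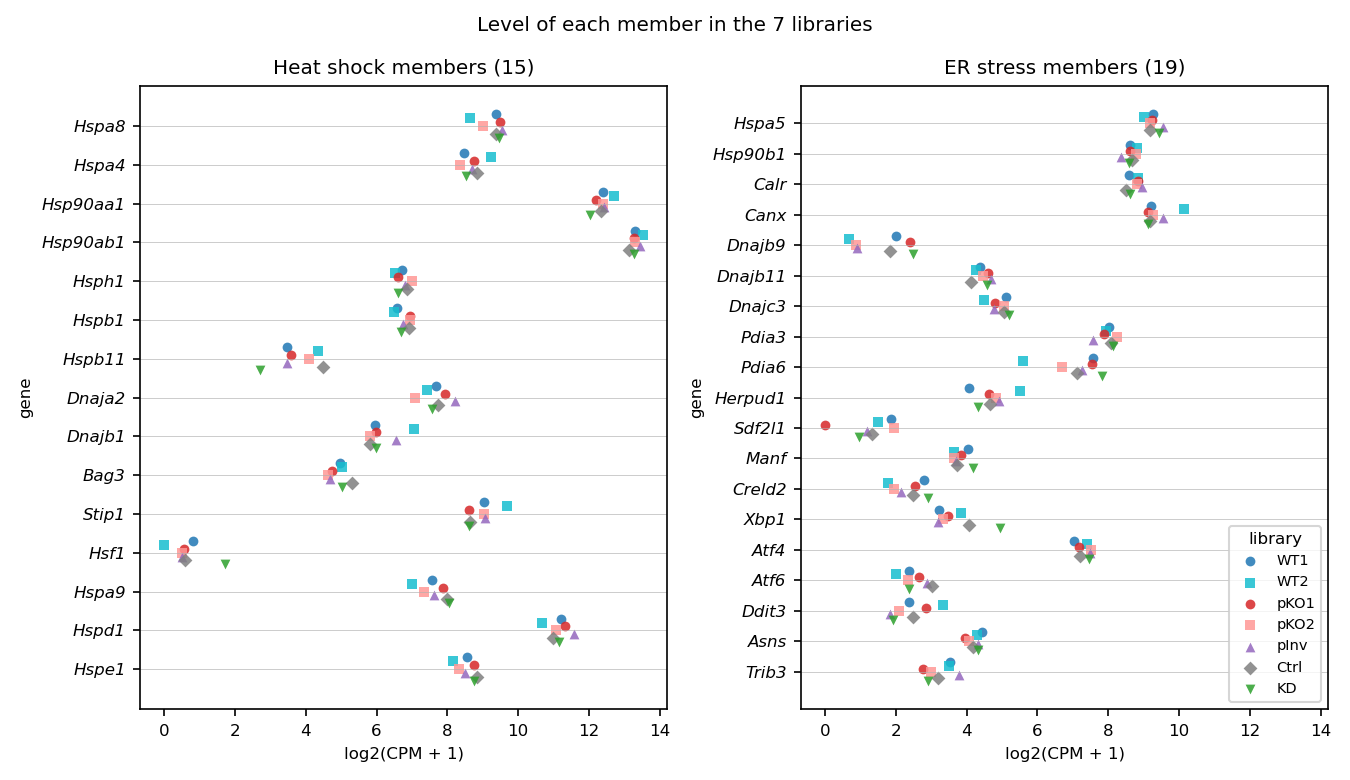
Level of the 34 genes in each library, as log2(CPM + 1) on the horizontal axis, with 1 marker per library and genes in rows (left, heat shock; right, ER stress). WT2 holds the highest value of Canx, Dnajb1 and Herpud1 and the lowest of Pdia6.

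Heat shock genes varied between libraries about as much as other genes, and Hsp90ab1 varied least of the 13 at a mean of 20 CPM or more. Hsp90ab1, the constitutive cytosolic Hsp90, stood at 10160 (WT1), 11890 (WT2), 9923 (pKO1), 10100 (pKO2), 11200 (pInv), 8914 (Ctrl) and 9847 CPM (KD), a highest to lowest ratio of 1.33. Hsp90aa1, its inducible sister, stood at 5403, 6681, 4688, 5364, 5501, 5234 and 4162 CPM in the same order, with WT2 highest and KD lowest. The median ratio of highest to lowest library was 1.81 over the 13 heat shock genes with a mean of 20 CPM or more, 1.57 over the 10 such ER stress genes and 1.74 over all 4682 such features. A ratio of 2 or more was reached by 4 of the 13 and 3 of the 10, against 32.6% of the 4682.

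The strongly stress-inducible Hsp70 genes Hspa1a and Hspa1b, listed as neighbours of the set, were near the detection limit, at 0 to 1.5 CPM and 0 to 0.478 CPM. Hsf1, the master regulator of the response, had 2, 0, 1, 1, 1, 1 and 5 counts in the library order above, so that KD alone exceeded 3 counts. At this depth a gene at these counts cannot be called absent, and Hsf1 was not tested.

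Hspa8, the constitutive cytosolic Hsp70, stood at 659.3 (WT1), 400.3 (WT2), 711.3 (pKO1), 510.8 (pKO2), 739.7 (pInv), 662.5 (Ctrl) and 706.5 CPM (KD). WT2 was lowest and pKO2 next, while the other 5 lay within 659.3 to 739.7 CPM. Its exchange factor Hspa4 went the other way in WT2, at 597.8 CPM, against 329.5 (pKO2) to 453.3 CPM (Ctrl) in the others. Hsph1, a second exchange factor, kept to 90.0 to 126.4 CPM, and Bag3, which links Hsp70 to selective autophagy, to 23.8 to 38.6 CPM.

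Among the J-domain partners of Hsp70, Dnajb1 stood at 60.7 (WT1), 132.0 (WT2), 62.1 (pKO1), 55.4 (pKO2), 92.9 (pInv), 54.8 (Ctrl) and 62.3 CPM (KD). WT2 and pInv were high and the other 5 lay close together. Dnaja2 stood at 204.7, 170.5, 242.7, 134.6, 296.6, 212.7 and 188.9 CPM in that order, lowest in pKO2 and highest in pInv. Stip1, the adaptor (HOP) that passes clients from Hsp70 to Hsp90, stood at 528.9, 828.3, 393.2, 522.7, 539.4, 397.5 and 392.5 CPM, again with WT2 highest.

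The mitochondrial genes had their lowest values in WT2. Hspd1, the chaperonin HSP60, stood at 2394 (WT1), 1621 (WT2), 2560 (pKO1), 2167 (pKO2), 3071 (pInv), 2012 (Ctrl) and 2275 CPM (KD). Hspe1, its lid HSP10, stood at 372.9, 283.3, 426.6, 322.5, 361.6, 459.4 and 427.6 CPM, and Hspa9, the mitochondrial Hsp70, at 190.0, 127.2, 235.5, 161.3, 195.2, 253.8 and 262.3 CPM. Hspd1 and Hspe1, which share the promoter shown above, did not peak in the same library: pInv was highest for Hspd1 and Ctrl for Hspe1.

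ER chaperones were read well above the detection limit in every library. Hspa5, the ER Hsp70 known as BiP, stood at 612.1 (WT1), 515.0 (WT2), 603.4 (pKO1), 576.1 (pKO2), 749.9 (pInv), 574.7 (Ctrl) and 693.6 CPM (KD). Hsp90b1, the ER Hsp90, kept to 329.7 (pInv) to 446.6 CPM (WT2), and the lectin chaperone Calr to 364.0 (Ctrl) to 494.0 CPM (pInv). Canx, the membrane-bound partner of Calr, stood at 591.5, 1125, 557.0, 619.6, 753.7, 576.2 and 561.5 CPM, with WT2 far above the others.

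Pdia6, a disulfide isomerase, ranged most, by 4.77-fold, among the 23 genes whose mean reached 20 CPM. It stood at 187.0 (WT1), 47.4 (WT2), 183.4 (pKO1), 102.2 (pKO2), 151.5 (pInv), 139.1 (Ctrl) and 226.3 CPM (KD), so both libraries numbered 2 were the lowest. Pdia3, another isomerase, kept to 187.6 (pInv) to 305.7 CPM (pKO2). Herpud1, of the degradation machinery of the ER, stood at 15.7, 44.4, 23.9, 27.5, 29.3, 24.4 and 18.9 CPM, highest in WT2 and lowest in WT1.

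Dnajc3, the J-domain protein that inhibits PERK, ran from 21.6 (WT2) to 35.6 CPM (KD), and Dnajb11, a partner of BiP, from 16.2 (Ctrl) to 24.6 CPM (pInv). The remaining folding genes were low: Manf at 11.4 to 17.1 CPM, Creld2 at 2.40 to 6.47 CPM, Dnajb9 at 0.600 to 4.62 CPM and Sdf2l1 at 0 to 2.87 CPM. Sdf2l1 was not tested.

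Of the ER regulators, Atf4 stood at 128.9 (WT1), 168.7 (WT2), 142.8 (pKO1), 183.0 (pKO2), 177.0 (pInv), 146.7 (Ctrl) and 175.0 CPM (KD), a narrow range. Xbp1 stood at 8.25, 13.2, 10.0, 9.03, 8.06, 15.7 and 29.6 CPM, highest in KD. Ddit3, the PERK target known as CHOP, stood at 4.12, 9.0, 6.21, 3.28, 2.55, 4.57 and 2.77 CPM. Atf6 was also low, at 4.12, 3.0, 5.26, 4.10, 6.37, 7.11 and 4.16 CPM, and for these last 2 genes the libraries differ by a few counts. RNA levels carry neither the splicing of Xbp1 nor the cleavage of ATF6, through which these factors are activated.

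Trib3, a target of ATF4 and CHOP, stood at 10.5 (WT1), 10.2 (WT2), 5.73 (pKO1), 6.98 (pKO2), 12.7 (pInv), 8.12 (Ctrl) and 6.47 CPM (KD). Asns, which carries the ATF4-type element shown above, ran from 14.3 (pKO1) to 20.6 CPM (WT1). Both genes were lower in the 2 pKO libraries than in either WT library. Counting both directions, these groups did not overlap for 3 of 18 tested ER stress members and for 24.9% of all 10265 genes.

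WT2 departed most from the other libraries over all features, and genes of both responses lay on either side of the others there. Each library was set against the median of the other 6 on the log2(CPM + 1) scale, over the 23 genes with a mean of 20 CPM or more (13 heat shock, 10 ER stress). In WT2, 2 of the 23 lay 2-fold or more away, Dnajb1 at 1.09 above and Pdia6 at -1.80, where 11.8% of all 4682 such features did. In the other libraries 0 of the 23 did, against 1.86% of features in KD, 0.47% in Ctrl, 1.05% in pInv, 2.41% in pKO2, 0.363% in pKO1 and 0.47% in WT1.

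Neither class moved as a block in WT2. Below the other libraries lay Hspa8 (-0.77), Hspa9 (-0.75), Hspd1 (-0.53), Hspe1 (-0.50) and Dnajc3 (-0.55), and above them Canx (0.94), Stip1 (0.85), Herpud1 (0.85) and Hspa4 (0.61). The heat shock median was -0.26 and the ER stress median -0.01 in WT2, where all features had 0.04, and the standard deviation over genes was 0.609, 0.768 and 0.695. Within the heat shock class, the 10 cytosolic genes had a median of 0.22 and the 3 mitochondrial genes a median of -0.53. Genes with the same ER stress element parted in WT2, with Pdia6 at -1.80, Dnajc3 at -0.55, Hspa5 at -0.24, Calr at 0.13, Hsp90b1 at 0.19 and Canx at 0.94. WT2 held the lowest value of 9 and the highest of 8 of the 23 genes, where it held the lowest of 29.3% and the highest of 30.7% of all features.

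**Figure D2:**
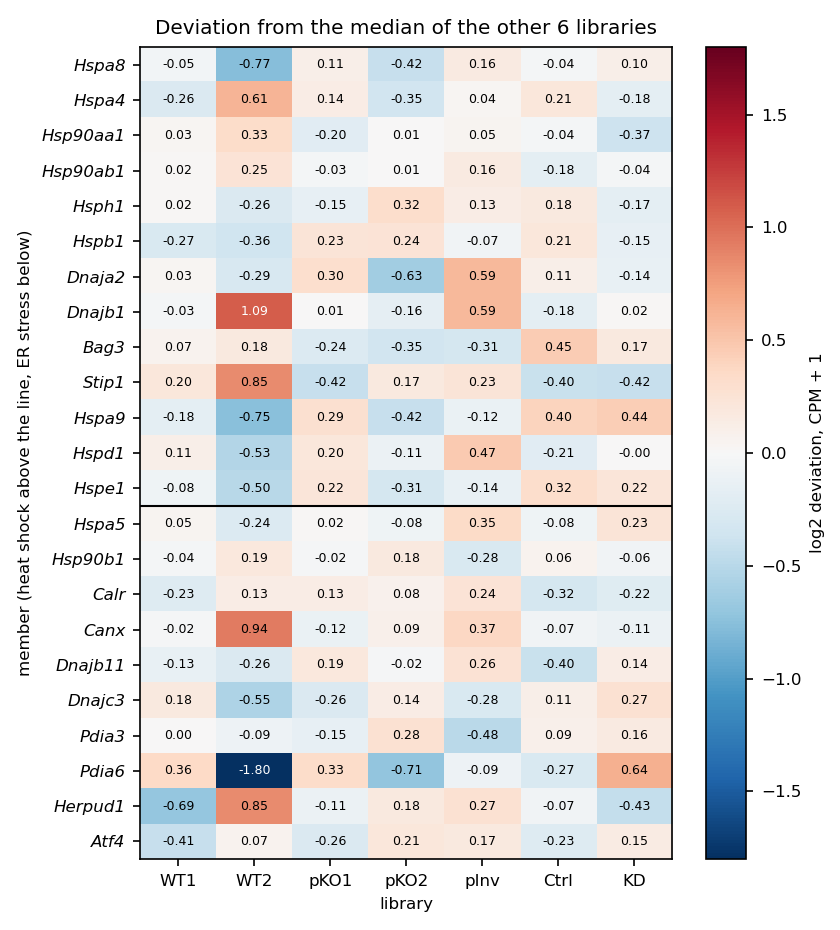
Log2 deviation of each library (columns) from the median of the other 6, on the CPM + 1 scale, for the 23 genes with a mean of 20 CPM or more (rows; red above, blue below). The strongest cells, Pdia6 at -1.80 and Dnajb1 at 1.09, are both in the WT2 column.

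The difference between the 2 pKO libraries repeated part of this pattern. That between the WT libraries holds WT2 itself, so it is not a separate look at it. From WT1 to WT2 and from pKO1 to pKO2, Hspa8 differed by -0.72 and -0.48, Hspa9 by -0.57 and -0.54, Hspe1 by -0.40 and -0.40 and Pdia6 by -1.96 and -0.84 on the log2 scale. Stip1 differed by 0.65 and 0.41, while Dnajb1 (1.11 and -0.16) and Hspa4 (0.77 and -0.38) went opposite ways. The sign was shared by 15 of 23 genes, 65.2%, where 68.3% of all features shared it, so these genes followed the libraries as other genes did. The correlation of the 2 differences across genes was 0.523 for the 23 and 0.498 for all 4682 features. Genes are not independent replicates, so it is given without a p-value.

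**Figure D3:**
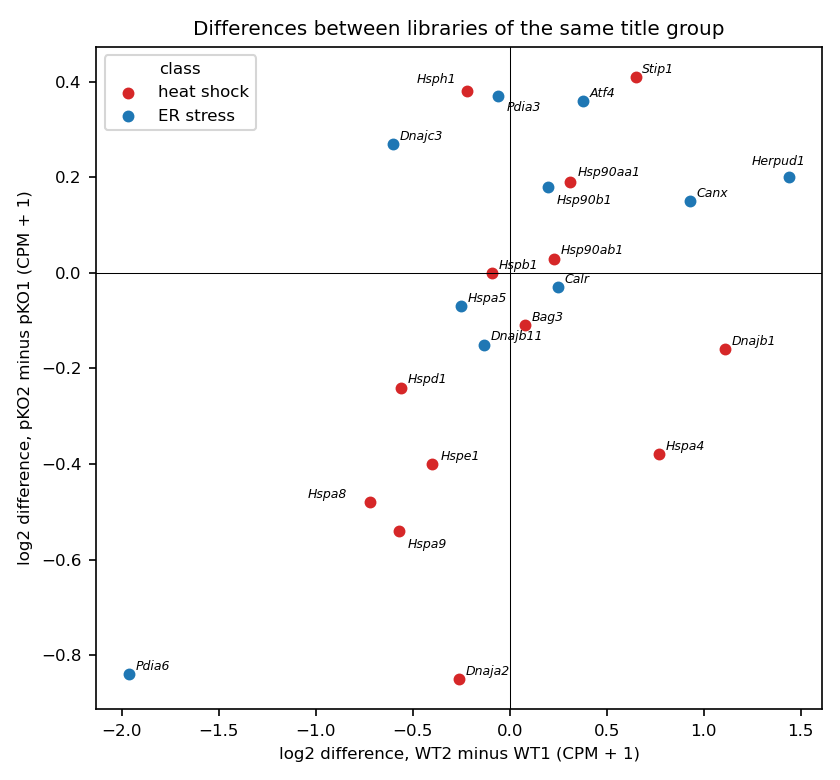
Log2 difference between the libraries of each title group, WT2 minus WT1 (horizontal) and pKO2 minus pKO1 (vertical), for 23 genes (red, heat shock; blue, ER stress). Pdia6, Hspa8, Hspa9, Hspd1 and Hspe1 lie below 0 on both axes, and Stip1, Canx and Herpud1 above 0 on both.

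The loss of the Meteor promoter was set against wild type with edgeR's quasi-likelihood test, a call being a Benjamini-Hochberg adjusted p under 0.05 over all 10265 genes tested. Of the 32 members tested (14 heat shock, 18 ER stress), 0 were called, and 0 of the 10265 genes, 0% of them. An unadjusted p under 0.05 was reached by 0 members and by 106 of all genes, and DESeq2 and limma on TPM also called 0 genes. Heat shock members split 7 higher and 7 lower with a median log2 difference of -0.04, and ER stress members 9 and 9 with 0.03, where all genes had 0.00.

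The 4 members with the smallest unadjusted p all had an adjusted p of 1.0 in edgeR's test. Dnajb1 averaged 96.4 ± 50.4 CPM in WT and 58.8 ± 4.74 in pKO (SD, n = 2 each), a log2 difference of -0.70 (SE 0.391, unadjusted p = 0.109). It came from WT2, since WT1 lay between the 2 pKO libraries, and it was -0.03 without WT2 and -1.16 without WT1. Canx averaged 858 ± 377 against 588 ± 44.2 CPM, a difference of -0.54 (SE 0.343, unadjusted p = 0.153) that became 0.01 without WT2 and -0.93 without WT1.

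Stip1 averaged 679 ± 212 CPM in WT and 458 ± 91.6 in pKO, a difference of -0.57 (SE 0.316, unadjusted p = 0.111) by edgeR, and -0.19 without WT2. Both WT libraries lay above both pKO libraries, by 528.9 against 522.7 CPM for the closest pair. Hspb1, a small heat shock protein that holds unfolding proteins, was the one of the 4 whose difference hardly moved when a library was left out. Its WT libraries stood at 93.7 and 88.2 CPM and its pKO libraries at 122.8 and 123.1 CPM, a difference of 0.43 (SE 0.255, unadjusted p = 0.129) by edgeR, and of 0.41 to 0.48 without any 1 WT or pKO library. The other libraries filled the gap, with pInv at 106.1, Ctrl at 120.8 and KD at 102.5 CPM.

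The WT and pKO libraries did not overlap for 8 of the 32 members, close to the 24.9% of all 10265 genes. Of the heat shock genes, Hspb1 was higher in pKO, and Hsp90aa1, Hsp90ab1, Bag3 and Stip1 lower. Of the ER stress genes, Dnajb11 was higher, and Asns and Trib3 lower. All 3 mitochondrial genes were higher in pKO, by 0.32 (Hspa9), 0.24 (Hspd1) and 0.19 (Hspe1) on the log2 scale, with standard errors of 0.320, 0.295 and 0.287, and WT2 was their lowest library. WT1 lay between the pKO libraries for all 3, and the 10 further mitochondrial chaperone genes split 3 higher and 7 lower (median -0.09).

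The inverted promoter (pInv, 1 library, assumed to vary like WT and pKO) was compared with wild type, with 0 of 32 members called and 0% of 10265 genes called. Heat shock members split 8 higher and 6 lower with a median of 0.08, and ER stress members 7 and 11 with -0.06, where all genes had -0.01. Hspd1 differed by 0.61 (SE 0.354, unadjusted p = 0.122, edgeR), with pInv at 3071 CPM above WT at 2394 and 1621. It was 0.36 without WT2 and 0.92 without WT1. Dnaja2 differed by 0.66 (SE 0.400, unadjusted p = 0.138, edgeR), and Hspa5 by 0.41 (SE 0.310, unadjusted p = 0.222, edgeR). In each of these 3 genes, which were named for a small p in this comparison, pInv was the highest of the 7 libraries. Among genes with a mean of 20 CPM or more, pInv was highest for 6 of 23 members and for 16.7% of all 4682 features. Ddit3 differed by -1.08 (SE 0.920, unadjusted p = 0.196, edgeR) at levels of a few CPM, and by -0.55 without WT2. Their adjusted p was 1.0, and 0 members and 152 of all genes had an unadjusted p under 0.05. DESeq2 and limma on log2(TPM + 1) called 0 genes here as well, and limma on log2(TPM + 0.1) called 4 genes, 0 of them members.

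The inverted and the deleted promoter were compared directly, and again 0 of 32 members and 0% of 10265 genes were called by edgeR. DESeq2 and limma on log2(TPM + 1) also called 0 genes, and limma on log2(TPM + 0.1) called 4 genes, 0 of them members. Members with an unadjusted p under 0.05 numbered 0, and all genes 153. Heat shock members split 8 higher in pInv and 6 lower (median 0.12), and ER stress members 10 and 8 (median 0.10), where all genes had 0.00. Trib3 had the smallest unadjusted p of any member, 0.0922, with 12.7 CPM in pInv against 5.73 and 6.98 CPM in pKO, a log2 difference of 0.91 (SE 0.518, adjusted p = 1.0, edgeR). Dnaja2 differed by 0.65 (SE 0.400, unadjusted p = 0.141), Dnajb1 by 0.65 (SE 0.465, unadjusted p = 0.193) and Pdia3 by -0.53 (SE 0.334, unadjusted p = 0.151) in the same edgeR test. pInv lay outside the range of the 2 pKO libraries for all 4. Their choice by the smallest p favours such genes, so this adds no support. Dnaja2 rested on pKO2, with 1.11 without pKO1 and 0.28 without pKO2, and Pdia3 became -0.34 without pKO2. This comparison shares pInv with the comparison to wild type and pKO with the deletion.

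**Figure D4:**
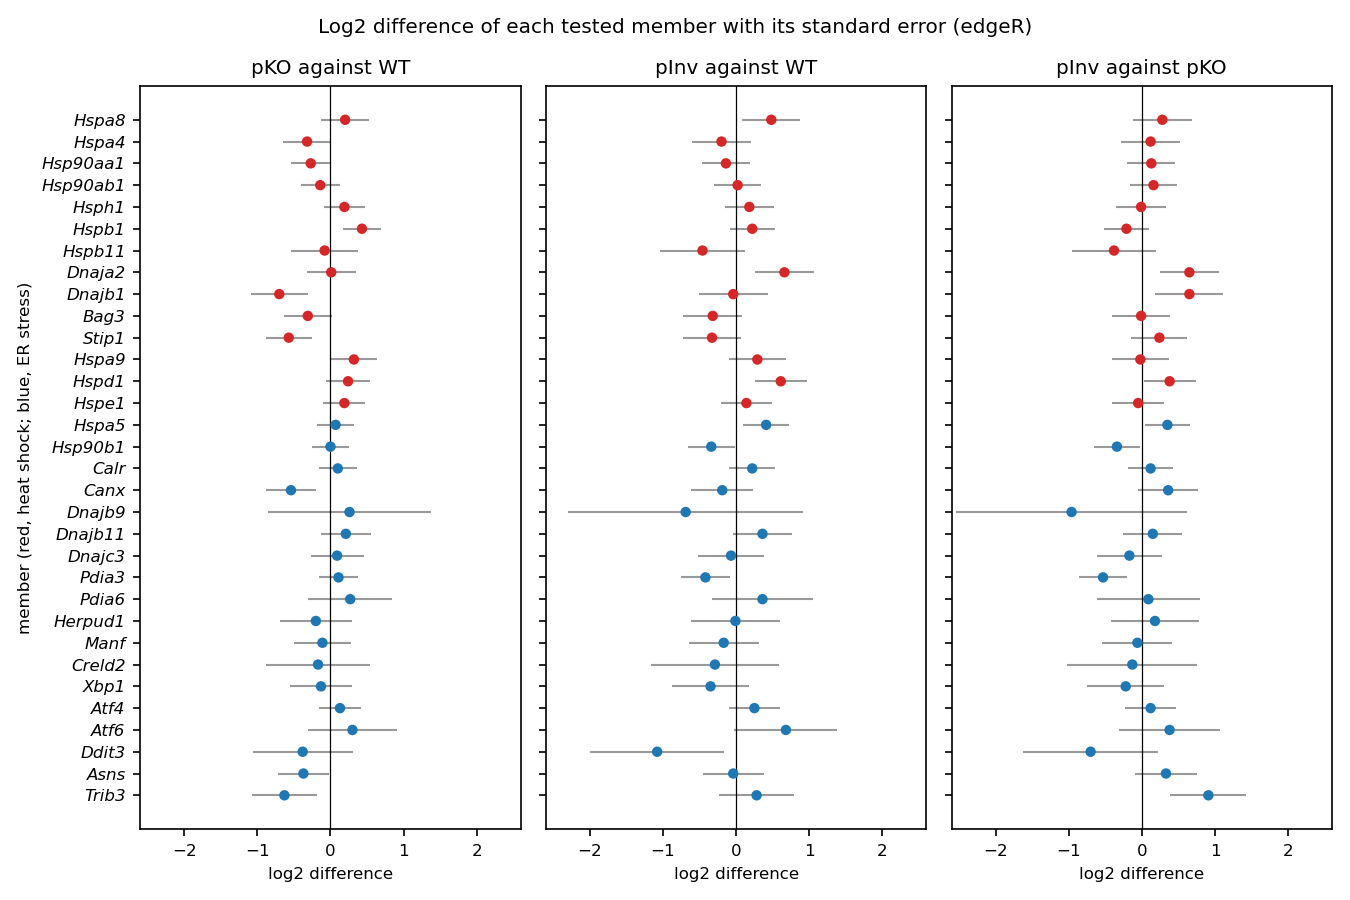
Log2 difference of the 32 tested members in the 3 comparisons (panels), with bars of 1 standard error from edgeR (red, heat shock; blue, ER stress). Most bars cross or nearly reach 0, and the widest belong to the low genes Dnajb9, Ddit3 and Creld2.

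Further genes of the same pathways, listed beside the 36, were not called either. Of 31 tested genes of cytosolic folding, 10 of the mitochondrion, 25 of the ER and 25 of the integrated stress response, 0 were called in each of the 3 comparisons. The smallest unadjusted p was 0.0269 for Hscb, a J-domain protein of iron-sulphur cluster assembly, at 7.50 and 7.20 CPM in WT libraries, against 2.87 and 2.05 in those of pKO (log2 difference -1.30, SE 0.578, adjusted p = 1.0, edgeR). Cct7, a subunit of the cytosolic chaperonin TRiC, stood at 1022 CPM in pInv and at 622.5 to 751.5 CPM in the other 6, with a log2 difference to pKO of 0.70 (SE 0.299, unadjusted p = 0.047, adjusted p = 1.0, edgeR). Sec61a1, of the ER translocation channel, was likewise highest in pInv, at 510.1 against 282.8 to 362.5 CPM.

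Knockdown of Meteor was set beside the empty vector, with 1 library each and therefore no test. Among genes at 20 CPM or more in either library, 8 of 11 ER stress members were higher in KD, with a median log2 ratio of 0.15. Of the heat shock members, 9 of 14 were lower, with a median of -0.14. Over all 5083 such genes, 2368 (46.6%) were higher and 2715 lower, with a median of -0.03. The cytosolic genes had 8 of 11 lower and a median of -0.24, and the 3 mitochondrial genes a median of 0.05, a difference that was not tested. The further cytosolic folding genes split 12 higher and 12 lower with a median of -0.04. Between replicate libraries of WT and pKO, the class median of single-library deviations had a standard deviation of 0.195 for heat shock and 0.09 for ER stress. A ratio of 2 libraries carries the spread of both, so these values understate the spread of the KD to Ctrl medians. Ratios of 2-fold or more were found for 0 of these 25 members upward and 1 downward, where 4.03% of genes were 2-fold or more higher and 1.26% lower.

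Hspb11, a gene named among small heat shock proteins that encodes an intraflagellar transport subunit, was the member past 2-fold. It stood at 21.3 CPM in Ctrl and 5.54 in KD, a ratio of 0.260 (exact 95% interval 0.125 to 0.503, counting error only). The other 5 libraries lay between 10.1 and 19.2 CPM, so Ctrl was the highest and KD the lowest of the 7. Its expected counts were fractional, which means that some of its reads were shared with other features.

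Xbp1 stood at 15.7 CPM in Ctrl and 29.6 in KD, a ratio of 1.88 (1.20 to 2.98), from 31 and 64 counts, and KD lay above all 6 other libraries. Pdia6 stood at 139.1 and 226.3 CPM, a ratio of 1.63 (1.40 to 1.89), though WT1 and pKO1 came close to KD with 187.0 and 183.4 CPM. Hspa5 had a ratio of 1.21 (1.12 to 1.30) and Atf4 of 1.19 (1.02 to 1.40), both within the range of the genotype libraries. These were the 4 of 11 ER stress members whose interval left out 1, all above it, where 15.7% of the 5083 genes lay above and 16.3% below. The interval narrows with the count, so it leaves out 1 more easily for abundant genes.

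Among heat shock members the interval left out 1 for 5 of 14, near the share of all genes in both directions together, 1626 of 5083. Of these, Hspd1 (1.13, 1.08 to 1.18) and Hsp90ab1 (1.10, 1.08 to 1.13) were above and Hsp90aa1 (0.795, 0.773 to 0.818), Hspa4 (0.818, 0.743 to 0.901) and Hspb11 below. The 2 cytosolic Hsp90 genes thus differed in direction between these libraries. The intervals cover counting only, and for Hsp90aa1 the wild-type libraries, at 5403 and 6681 CPM, stood about as far apart as Ctrl and KD. Hspd1, Hspe1, Hsp90ab1, Hspa4, Hspb1, Bag3 and Pdia6 also had fractional expected counts in Ctrl or KD, so some of their reads were shared with other features.

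KD also held RNA of macrophage genes that were at or near 0 in the other libraries, with Lyz2 at 175.0, Adgre1 at 28.6 and Csf1r at 12.5 CPM, Ptprc and Fcer1g at 0, and a sum of 221 CPM over the 7 markers against 1.02 in Ctrl. Summed streak markers were 2470 CPM in KD and 1680 in Ctrl, and summed pluripotent markers 1400 and 1980 CPM. Markers of extraembryonic endoderm, a secretory cell type, summed to 209 CPM in KD and 235 in Ctrl. Most of that sum was Sparc, at 144.5 and 195.4 CPM. The part of any of these cell types in the ratios of Xbp1, Pdia6 and the other members was not tested. In the further lists, Slc7a11, the cystine carrier induced by ATF4, went from 1.52 CPM in Ctrl, which is 3 counts, to 20.3 CPM in KD. The ratio was 13.3 (counting interval 4.28 to 67.2), and the remaining 5 libraries lay between 0 and 0.424 CPM. Ddit4, a stress-induced inhibitor of mTORC1, had 2.06 (1.68 to 2.54) and Afg3l2, a mitochondrial protease, 2.06 (1.41 to 3.06), but WT1 exceeded KD for Ddit4, at 176.9 against 141.3 CPM.

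**Figure D5:**
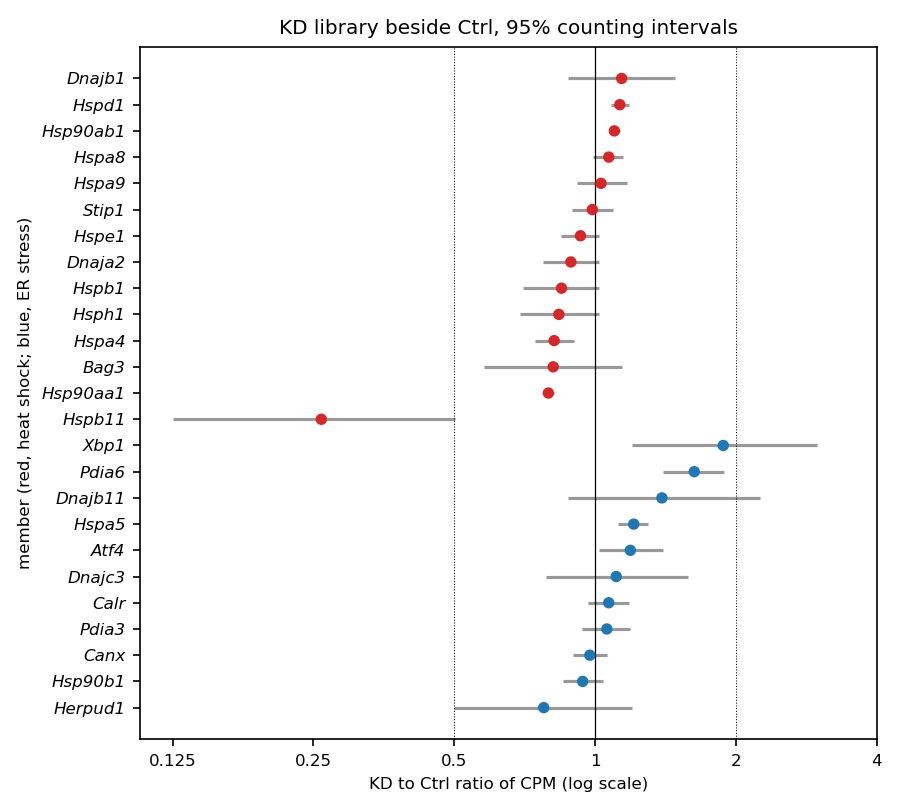
Ratio of KD to Ctrl in CPM (log axis) for the 25 members at 20 CPM or more in either library, with exact 95% counting intervals (red, heat shock; blue, ER stress) and dotted lines at 2-fold. ER stress members reach up to 1.88 (Xbp1), and Hspb11 at 0.260 is the only one beyond a dotted line.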

How the data were processed

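Per the file headers, the authors deposited RSEM's expected counts for each gene and library, together with TPM and FPKM. The submitters' processing notes name RSEM and the build mm9 and state no version. How reads were trimmed, stranded and deduplicated is not given in the sources used, and without strand overlapping genes cannot be told apart. The deposited expected counts were rounded to whole numbers. The deposited TPM values, scaled by transcript length, served in alternatives, and FPKM was not used.

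The genes and the lists beside them were chosen with earlier results of these data known. Symbols came from a RefSeq table of a later build, GRCm38, used for names and promoters only.

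edgeR 4.0.16 in R 4.3.3 fitted all 7 libraries with a coefficient per title group, TMM scaling, filterByExpr (10265 genes kept) and a prior count of 2 for log2 differences. Only WT and pKO have 2 libraries, leaving 2 residual degrees of freedom (prior 5.86, common coefficient of variation 0.294). P-values measure the spread between these libraries, which may be technical. limma 3.58.1 and DESeq2 1.42.0 were alternatives. The fit was tested on simulated data.

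KD and Ctrl ratios carry exact binomial 95% intervals, without molecular identifiers, so they cover counting error only. Genes were named by rule: the regulators, the 4 smallest p per comparison, KD ratios of 1.5-fold or more whose interval leaves out 1, the 6 widest ranges and the 3 highest means per class, and the 3 smallest p per further list. Other genes named were chosen after their values were seen. Alternatives were other scaling, filters, tools, pseudocounts, left-out libraries, a replicate block and the genotype field.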

Additional observations from a re-analysis of the deposited data

Results flagged for a closer look

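Of the 36 genes, 2 were held only in rows merged with a microRNA gene, and so stayed out of the comparisons above, although both held signal in every library. The row of Dnaja1, a cytosolic J-domain partner of Hsp70, merged with Mir207, had 118.8 CPM in WT2 as its lowest value and 193.9 CPM in KD as its highest. The row of Pdia4, an ER disulfide isomerase, merged with Mir704, had 116.6 CPM in pKO1 as its lowest value and 162.5 CPM in pKO2 as its highest. Which of the merged genes the reads came from cannot be told apart.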

How the results depend on the processing

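Of 357 alternative values, 340 kept their call or stayed within the spread between replicates, 7 moved and 10 reversed. Of the 340, 146 were log2 differences of named members, none of them called, so the count does not speak for their size. Dnajb1 for pKO against WT, at -0.70 and at -0.03 without WT2, is among them. Among the 340, 3 class medians near 0 changed sign: ER stress in pKO against WT without pKO2 (-0.04), heat shock in WT1 without WT2 (-0.06) and ER stress in WT2 without the 45S precursor (0.05). Members called stayed at 0 in each comparison under all 39 alternatives, where few genes of any kind were called. For pKO against WT, the fit with no filter on low counts called 9 of 16702 genes. The other alternatives that kept all 7 libraries called 0 genes in that comparison. With a replicate block (2 pairs, which the labels do not say are matched) 0 members were called, and the ER stress median of pInv against pKO was -0.01 in place of 0.10. Leaving out WT1, so that WT2 alone stood for wild type, moved the log2 differences for pKO against WT. Dnajb1 became -1.16, Canx -0.93, Stip1 -0.85 and Hspb1 0.48, and p-values of that fit are not given.

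Leaving out 1 library each moved the ER stress median over -0.15 to 0.06 for pKO against WT and over -0.07 to 0.09 for pInv against WT, and Canx over -0.93 to 0.01 for pKO against WT. Grouping by the genotype field reversed, for pKO against WT, Dnajb1 (0.37), Stip1 (0.35), Hspb1 (-0.33) and Canx (0.32). For pInv against WT it reversed Hspd1 (-0.03), Ddit3 (0.90) and Hspa5 (-0.14), and for pInv against pKO Trib3 (-0.76) and Dnajb1 (-0.62). The heat shock and ER stress medians of pInv against pKO became -0.08 and -0.04. For KD against Ctrl, a minimum of 50 CPM left 0 members past 2-fold, since Hspb11 dropped out, and with the deposited TPM the ER stress median was 0.27. Deviations by library without WT2, an alternative chosen after seeing the data, moved no median by more than that spread.

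Depth limits the low genes: Hsf1, Sdf2l1, Dnajb9, Ddit3, Atf6 and Creld2 rest on few counts per library.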
